A study of Mus musculus with 4 samples.

Results

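The genes described here take part in the defence against peroxides, superoxide and electrophiles. They are the glutathione genes, the peroxiredoxin and thioredoxin genes, the superoxide dismutases and catalase, and NRF2 with its marker targets. A gene probe was a member if its name in the array file began with Gsta, Gstm, Gsto, Gstp, Gstt, Gstz, Mgst, Gpx, Prdx or Txnrd, or was Gclc, Gclm, Gsr, Gss, Nqo1, Hmox1, Srxn1, Nfe2l2, Cat, Sod1, Sod2 or Txn1. This gave 51 names among 27962 on the array, or 77 among 41174 gene probes. Of these, 75 probes with 50 names passed the filter on signal over background, and the Gpx6 probe and 1 of 3 Mgst3 probes did not.

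Expression was measured in cultured epidermal keratinocytes of Casp-8 F/- K5-Cre mice at passage 3 and passage 1 and of Casp-8 F/+ K5-Cre mice at the same passages, with the age label P3 for all. Every culture carried the K5-Cre transgene, which drives Cre recombinase from the promoter of keratin 5, active in basal keratinocytes, and a loxP-flanked (F) allele of the caspase-8 gene, which stood over a null allele in F/- and over a wild-type allele in F/+ cultures. Keratinocytes of 2 mice per genotype gave 8 RNA samples, and each of 4 two-colour arrays held F/- RNA in Cy3 and F/+ RNA in Cy5, 2 arrays at passage 3 (late) and 2 at passage 1 (early), numbered as pairs 1 and 2. No dyes were exchanged, so dye and genotype cannot be told apart, whereas the change with passage was read within 1 dye.

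Glutathione is made by glutamate-cysteine ligase (Gclc and Gclm) and glutathione synthetase (Gss) and is returned to its reduced form by glutathione reductase (Gsr). Glutathione S-transferases couple it to electrophiles, glutathione peroxidases spend it to reduce hydrogen peroxide and lipid peroxides, and peroxiredoxins do the same with electrons from thioredoxin. The transcription factor NRF2 (Nfe2l2) induces many of these genes through antioxidant response elements, and in epidermis it is known for its part in the response of keratinocytes to electrophiles and ultraviolet light.

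The source name of the Cy5 RNA on both late arrays gives the first passage, while title, description and the passage entry place it at passage 3, which was followed. All F/+ changes with passage rest on that reading. So do the late ratios of F/- over F/+, the mean of both passages and late minus early. Over all probes, log2 intensities of late and early Cy5 RNA correlated at 0.971 in pair 1 and 0.954 in pair 2, and those of Cy3 RNA at 0.968 and 0.963. The Casp8 probe read log2 ratios of F/- over F/+ of 0.47 and -0.20 on the late and 0.42 and 0.18 on the early arrays. It checks no label, since nothing used here says whether it lies in the deleted part. Of the 75 members kept by the filter on signal over background, 73 were well above background in both channels on all 4 arrays. Before any filter, 75.8% to 85.4% of all gene spots on single arrays passed this threshold in Cy3 and 80.6% to 87.9% in Cy5. The 2 measures are not alike. All 19 keratinocyte marker probes were well above background on at least 1 array, but so were all 9 melanocyte probes, all but 1 of 22 leukocyte probes, all but 1 of 19 fibroblast probes and all but 2 of 12 endothelial probes. In bulk RNA, fewer cells of a type and less RNA per cell cannot be told apart.

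Promoters of 43 of the 51 member genes were found in the RefSeq table of assembly GRCm38.p6, each as a window from 250 bases before to 50 bases after the start. A core of the antioxidant response element, TGACNNNGC, was searched on both strands and stood in 10 of 43 member genes (23.3%), against 3781 of 27025 genes in the table (13.99%). The AP-1 motif TGACTCA, which overlaps the first motif where GC follows it, stood in 5 of 43 member genes (11.6%), against 1607 of 27025 (5.95%). Members with the first motif were Gclm, Gsta3, Gstm5, Gstm7, Mgst1, Nfe2l2, Prdx1, Sod1, Srxn1 and Txnrd1, and those with the second were Gstm5, Gstp1, Mgst2, Prdx1 and Srxn1. Of the 14 member genes called in any comparison below, 12 had a promoter in the table, and Hmox1 and Gsta4 did not, so they were not searched. Of the 12, 2 genes, Mgst1 and Gsta3, held the first motif and 0 the second. A match is a description of letters in a window, not of binding. The windows of these genes, of Srxn1, which holds both motifs and was not called, and of Gstm2 and Txn1, the members with the lowest F/- over F/+ ratio, follow 5′ to 3′ with motif matches in capitals. They lie at chr6:138140277-138140576 on the plus strand (Mgst1, the upstream one of 2 listed starts), chr1:21240335-21240634 on the plus strand (Gsta3), chr2:152105274-152105573 on the plus strand (Srxn1), chr3:107986371-107986670 on the minus strand (Gstm2) and chr4:57956362-57956661 on the minus strand (Txn1).
Mgst1: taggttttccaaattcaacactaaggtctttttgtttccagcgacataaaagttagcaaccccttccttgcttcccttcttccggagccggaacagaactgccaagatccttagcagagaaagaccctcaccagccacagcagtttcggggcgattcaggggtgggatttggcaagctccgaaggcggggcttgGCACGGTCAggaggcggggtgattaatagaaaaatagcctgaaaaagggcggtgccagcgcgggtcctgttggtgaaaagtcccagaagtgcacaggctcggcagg
Gsta3: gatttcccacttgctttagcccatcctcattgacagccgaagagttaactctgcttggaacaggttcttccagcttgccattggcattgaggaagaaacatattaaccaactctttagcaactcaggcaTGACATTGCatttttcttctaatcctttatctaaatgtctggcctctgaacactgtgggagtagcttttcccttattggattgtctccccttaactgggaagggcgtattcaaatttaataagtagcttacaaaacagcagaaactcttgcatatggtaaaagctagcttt
Srxn1: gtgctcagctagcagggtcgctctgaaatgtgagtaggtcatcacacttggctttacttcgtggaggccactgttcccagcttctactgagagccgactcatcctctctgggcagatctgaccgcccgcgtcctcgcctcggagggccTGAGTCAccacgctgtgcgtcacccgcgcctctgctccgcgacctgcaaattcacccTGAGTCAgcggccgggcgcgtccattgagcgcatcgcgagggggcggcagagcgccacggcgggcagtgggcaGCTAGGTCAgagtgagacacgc
Gstm2: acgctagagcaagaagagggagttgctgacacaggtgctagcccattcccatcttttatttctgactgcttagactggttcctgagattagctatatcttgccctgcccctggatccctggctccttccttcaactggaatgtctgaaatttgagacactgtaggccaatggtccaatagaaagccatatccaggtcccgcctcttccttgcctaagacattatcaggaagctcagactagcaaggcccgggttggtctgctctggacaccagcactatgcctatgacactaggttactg
Txn1: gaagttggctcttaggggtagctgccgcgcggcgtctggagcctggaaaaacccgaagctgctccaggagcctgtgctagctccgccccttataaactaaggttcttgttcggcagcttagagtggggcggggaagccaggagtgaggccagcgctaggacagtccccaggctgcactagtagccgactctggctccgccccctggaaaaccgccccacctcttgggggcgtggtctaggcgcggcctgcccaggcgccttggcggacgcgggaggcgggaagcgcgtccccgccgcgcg
The matches in the Mgst1 and Gsta3 windows lie before the start, that of Mgst1 on the minus strand. Their GC content differed, at 53.7% for Mgst1, 41.0% for Gsta3, 64.3% for Srxn1, 50.0% for Gstm2 and 67.3% for Txn1.

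The first comparison asked how F/- and F/+ cultures differed as the mean of both passages. Gstm2 and Txn1 were lower and Gpx4, Gpx2 and 1 of 3 Txnrd2 probes were higher in F/- cultures, by 1.26- to 1.69-fold. These were 5 of 75 members (6.67%), 3 higher and 2 lower, against 8.84% of all 35574 probes, 5.85% higher and 2.99% lower, so the members were called about as often as the rest of the array. The median member ratio was 0.041 on the log2 scale, against -0.011 over all probes, and 18 of 75 members (24%) had an unadjusted p under 0.05 in limma's test, against 29.4% of all probes. All 4 arrays had the same sign in 10 member probes above 0 and 9 below 0. This was not counted over all probes, so whether it is many cannot be said. The counts are of probes, and of the 16 genes with over 1 kept probe, the probes of 6 had 1 sign.

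**Figure D1:**
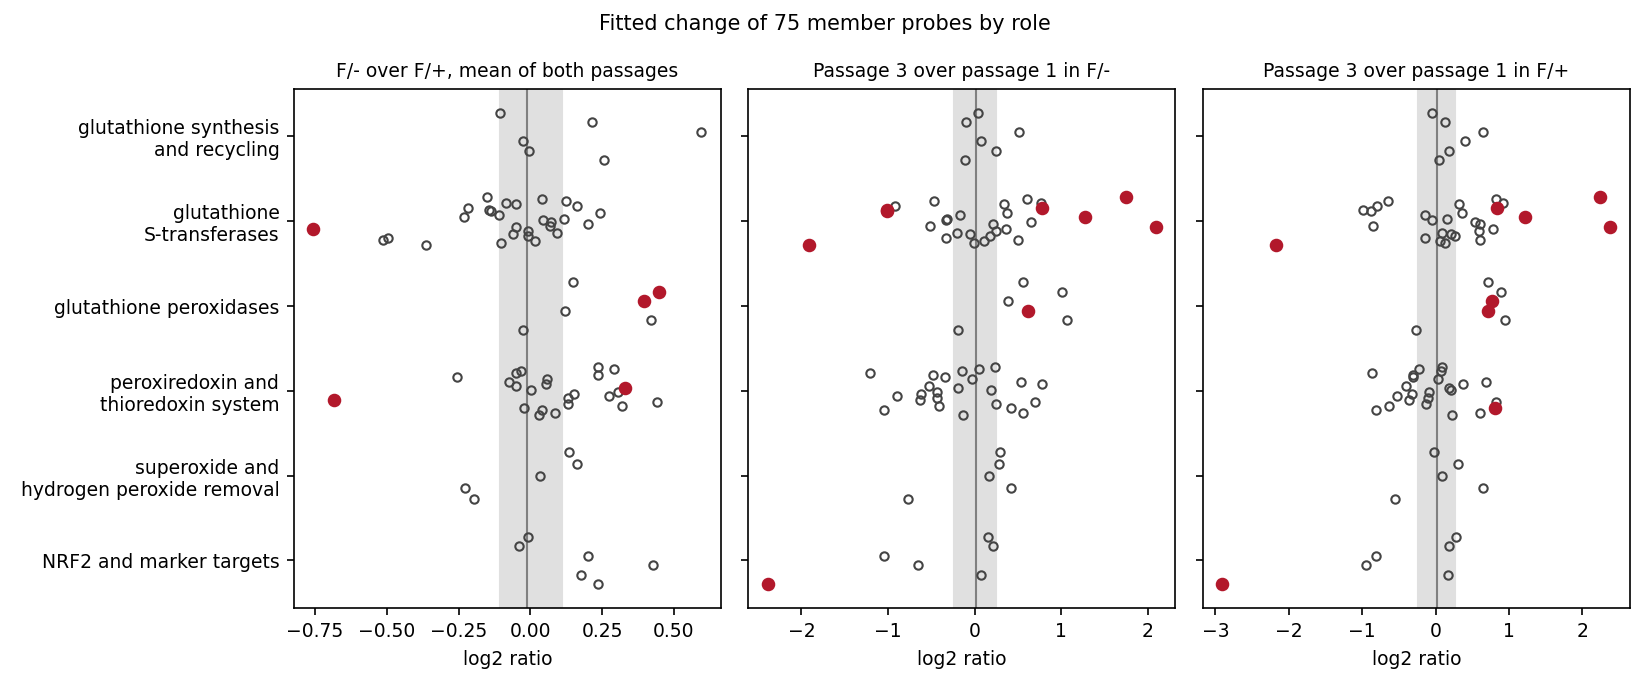
Fitted log2 change (horizontal) of the 75 member probes, in rows by role, for F/- over F/+ and for passage 3 over passage 1 in each genotype. Filled red points passed an adjusted p of 0.05, the grey band spans the middle quartiles and the grey line the median of all probes. The panels have axes of their own. In both passage panels transferases hold the widest spread, with Mgst1 above 1.7 and Gsta4 below -1.9.

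The calls over both passages treat 4 arrays from 2 mice per genotype as separate. With the passages of a pair averaged into 1 value before the limma fit, 0 members and 0 probes in all were called (smallest adjusted p = 0.051). Leaving out either early array or the late array of pair 1 also left 0 members called, and leaving out the late array of pair 2 left 8. With median centring in place of loess, 0 members were higher and 11 lower. Of all probes called with median centring, 917 of 3967 were higher, against 2080 of 3144 with loess. The scanner's own ratios and the authors' deposited table each gave 0 members higher and 2 lower, Gstm2 and Txn1. The Gpx4 ratio was -0.095 with median centring, and those of Gpx2 and Txnrd2 were 0.32 and 0.22, past the threshold no longer (adjusted p = 0.055 and 0.11).

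**Figure D2:**
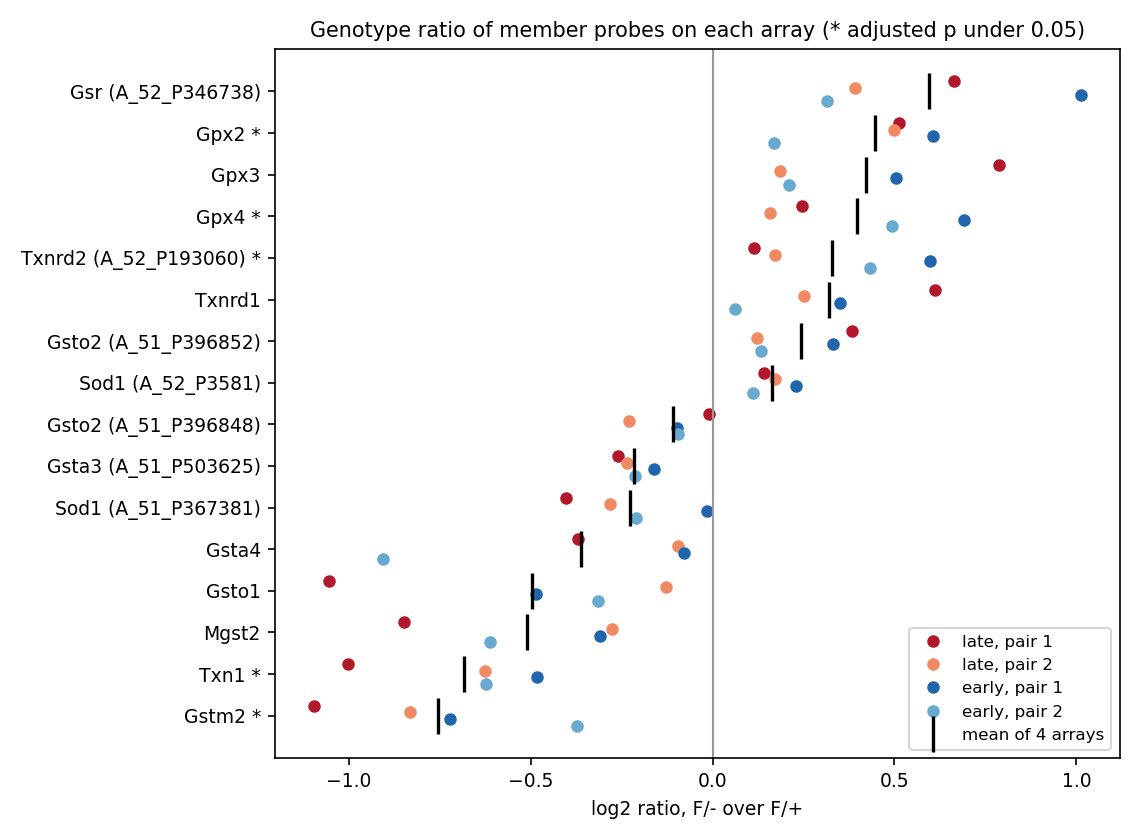
Log2 ratio of F/- over F/+ (horizontal) of the member probes with the highest and lowest mean among those of 1 sign on all 4 arrays (rows), on each array (points) and as the mean of 4 arrays (bars). Asterisks mark probes past an adjusted p of 0.05. Gstm2 and Txn1 lie below -0.3 on every array.

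Among genes for glutathione synthesis and recycling, 0 of 6 probes were called. Gclm, the modifier subunit of the ligase, averaged 0.26 ± 0.24 (SD, n = 4 arrays), Gss 0.21 ± 0.28, and the catalytic subunit Gclc -0.026 ± 0.39. One Gsr probe read 0.66 and 0.39 on the late and 1.01 and 0.31 on the early arrays (adjusted p = 0.060 in limma's test, 0.034 with the pair as a block). The other Gsr probes averaged -0.0061 and -0.11, so the probes of this gene did not read alike.

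Among 28 transferase probes, 1 was lower and 0 were higher. Gstm2, a cytosolic mu-class transferase, had log2 ratios of -1.10 and -0.83 on the late and -0.72 and -0.37 on the early arrays, a mean of -0.76 ± 0.30 (SD, n = 4), or 1.69-fold lower (limma adjusted p = 0.026). Its level was 11.24 and 11.34 log2 units in F/- cultures at passage 3 and 10.82 and 11.03 at passage 1, against 12.34 and 12.17 in F/+ cultures at passage 3 and 11.54 and 11.41 at passage 1. The genotypes, read in different dyes, did not overlap at either passage. Such overlap was not counted over the members or over all probes. Mgst2, a microsomal transferase, averaged -0.51 ± 0.27 (adjusted p = 0.063), Gsto1, an omega-class transferase, -0.50 ± 0.40 (0.12) and the alpha-class Gsta3 -0.22 ± 0.041 at its brighter probe (0.069), each below 0 on 4 of 4 arrays. The 2 Gsto2 probes stood on opposite sides, at 0.24 and -0.11. Mu-class genes are close paralogs, and whether each probe reads a single one of them was not tested; Gstm1, Gstm3, Gstm4, Gstm5, Gstm6 and Gstm7 averaged between -0.15 and 0.20.

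Glutathione peroxidases gave 2 higher and 0 lower calls among 6 probes, with a median of 0.27. Gpx4, which reduces lipid hydroperoxides in membranes, read 0.25 and 0.16 on the late and 0.69 and 0.49 on the early arrays, a mean of 0.40 ± 0.24 (SD, n = 4, limma adjusted p = 0.034). Gpx2, an epithelial peroxidase, read 0.51 and 0.50 on the late and 0.61 and 0.17 on the early arrays, a mean of 0.45 ± 0.19 (adjusted p = 0.049). The secreted Gpx3 read 0.79 and 0.18 on the late and 0.51 and 0.21 on the early arrays and averaged 0.42 ± 0.28 (adjusted p = 0.096, and 0.044 with the pair as a block). Gpx1 and Gpx7 averaged 0.15 and 0.12, and Gpx5 averaged -0.024.

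In the peroxiredoxin and thioredoxin system, 1 of 24 probes was lower and 1 higher. Txn1, cytosolic thioredoxin, which hands electrons to peroxiredoxins, read -1.003 and -0.63 on the late and -0.48 and -0.62 on the early arrays, a mean of -0.68 ± 0.22 (SD, n = 4), or 1.61-fold lower (limma adjusted p = 0.027). Its levels were 13.80 and 14.38 log2 units in F/- at passage 3 and 14.64 and 14.79 at passage 1, against 14.80 and 15.00 in F/+ at passage 3 and 15.12 and 15.41 at passage 1. The F/- values lay below the F/+ values, read in the other dye, at each passage, which was not counted over the members or all probes. Txnrd1, the cytosolic reductase that recharges thioredoxin, averaged 0.32 ± 0.23 (adjusted p = 0.096) and -0.19 with median centring. Of 3 probes for the mitochondrial reductase Txnrd2, A_52_P193060 read 0.12 and 0.17 on the late and 0.60 and 0.43 on the early arrays and averaged 0.33 ± 0.23 (adjusted p = 0.042, and 0.059 with the pair as a block), A_51_P460181 0.27 ± 0.31 and A_52_P394561 -0.26 ± 0.34. The peroxiredoxin Prdx1 read 0.88 and -0.12 on the late and 0.47 and 0.54 on the early arrays (adjusted p = 0.17), and the 3 probes of sulfiredoxin, Srxn1, which repairs overoxidised peroxiredoxins, averaged between 0.054 and 0.29.

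Neither the enzymes that remove superoxide and hydrogen peroxide nor NRF2 and its marker targets gave a call. Sod1, cytosolic superoxide dismutase, averaged -0.23, 0.033 and 0.16 at its 3 probes, the mitochondrial Sod2 -0.20 ± 0.20, and Cat, catalase, 0.13 ± 0.20. Nqo1, a quinone reductase widely used to read NRF2 activity, read 0.70 and 0.45 on the late and 0.66 and -0.094 on the early arrays (adjusted p = 0.12). Hmox1, heme oxygenase 1, read 0.61 and 0.38 on the late and 0.10 and -0.15 on the early arrays (adjusted p = 0.12). The 4 Nfe2l2 probes averaged between -0.039 and 0.20.

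Markers of keratinocytes and of other cells were also called between the genotypes. Of 19 keratinocyte probes, 4 were called lower in F/-, those of Krt14 at -0.66 and Krt5 at -0.60 (limma adjusted p = 0.026 and 0.032) and 1 probe each of Col17a1 at -0.58 and Itga6 at -0.50 (0.030 and 0.034). The other Col17a1 probe averaged -0.017 and the other Itga6 probes 0.29 and 0.50, and none of these was called. One of 3 Trp63 probes was called higher, at 0.54 (0.046), and the median of the keratinocyte probes was 0.019. Leukocyte markers had a median ratio of 0.37, with 17 of 20 probes above 0 and 3 called higher, and their summed intensity was 17365 and 11645 in F/- at passage 3 and 42310 and 29478 at passage 1, against 5277 and 5261 in F/+ at passage 3 and 26276 and 29498 at passage 1. The leukocyte sum was higher in F/- on 3 arrays and not on the early array of pair 2, where the median ratio of these probes was 0.075. Fibroblast markers had a median of 0.47 and 0.28 on the late and 0.070 and 0.014 on the early arrays, with 1 of 17 probes called higher. Melanocyte markers had a median of 0.31 over the arrays, with 1 of 9 probes called higher, and endothelial markers one of -0.022, with 0 of 9 called. The part of these cells in the member ratios was not tested.

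The next comparison asked whether the genotype ratio differed by passage. At the late passage 0 of 75 members and 0% of all probes were called, and 0 of 75 and 0% likewise at the early passage (smallest adjusted p over all probes 0.079 late and 0.070 early). Of the members, 15 late and 11 early had an unadjusted p under 0.05, against 7109 late and 7333 early of 35574 probes. The median member ratio was -0.011 late and 0.093 early, on single arrays -0.0088 and -0.064 late and 0.11 and 0.053 early. Late minus early also gave 0 members and 0% of all probes (smallest adjusted p 0.82 in limma's test, 2074 probes at an unadjusted p under 0.05, 8 of them members). Of 75 members 52 were below 0 in this difference, against 18067 of all 35574 probes. The member median was -0.12, against -0.0032 over all probes. Peroxiredoxin and thioredoxin probes were below 0 in 19 of 24 and transferase probes in 20 of 28, and these probes share the same 4 arrays.

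The members furthest apart between passages were Hmox1 and Mgst1. Hmox1 had a late minus early difference of 0.52 ± 0.15 (SE, limma adjusted p = 0.83), and the less bright Mgst1 probe one of -0.49 ± 0.18 (0.84). Gstp1, the pi-class transferase, read -0.062 and -0.18 on the late and 0.54 and 0.17 on the early arrays at 1 of its 2 probes. Prdx4, the peroxiredoxin of the endoplasmic reticulum, read -0.21 and -0.22 on the late and 0.29 and 0.064 on the early arrays at 1 probe. Gsta1, an alpha-class transferase, read 0.14 and 0.34 on the late and 0.12 and -0.32 on the early arrays. Srxn1 read 0.25 and 0.39 on the late and -0.35 and 0.23 on the early arrays at 1 of 3 probes, and Cat read 0.22 and 0.38 on the late and -0.038 and -0.021 on the early arrays. None of these differences passed the test over all probes.

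The passage comparisons asked what changed with culture in each genotype. Hmox1 and Gsta4 were lower and Mgst1, Gstt3, Gsta3 and Gpx7 were higher at passage 3 in F/- and in F/+ cultures alike, by 1.54- to 7.49-fold. In F/- cultures 9 of 75 member probes (12%, 5 higher and 4 lower) were called, against 5.08% of 35475 probes, 2.88% higher and 2.2% lower. In F/+ cultures 9 of 75 (12%, 7 higher and 2 lower) were called, against 5.65% of all probes, 3.23% higher and 2.42% lower. Of these, 7 probes of 6 genes were called in both. The 2 comparisons share arrays, so their calls are not independent. Past 2-fold stood 12 of 75 members (16%) in F/-, against 7.23% of all probes, and 5 of 75 (6.67%) in F/+, against 7.12%. The median member change was 0.074 in F/- and 0.13 in F/+ on the log2 scale, against 0.011 and 0.020 over all probes.

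The passage calls depend on single arrays, and all of them ended when either early array was left out. Leaving out either late array also ended those of Gpx7 in both genotypes, Gstm1 and Gstm3 in F/- and Gpx4 in F/+. With the pair as a block, 5 members were called in F/- (3 higher) and 8 in F/+ (6 higher), and without normalization between arrays 3 in F/- (2 higher) and 4 in F/+ (2 higher). In F/+ 16 were called without the late array of pair 1 and 5 without that of pair 2.

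**Figure D3:**
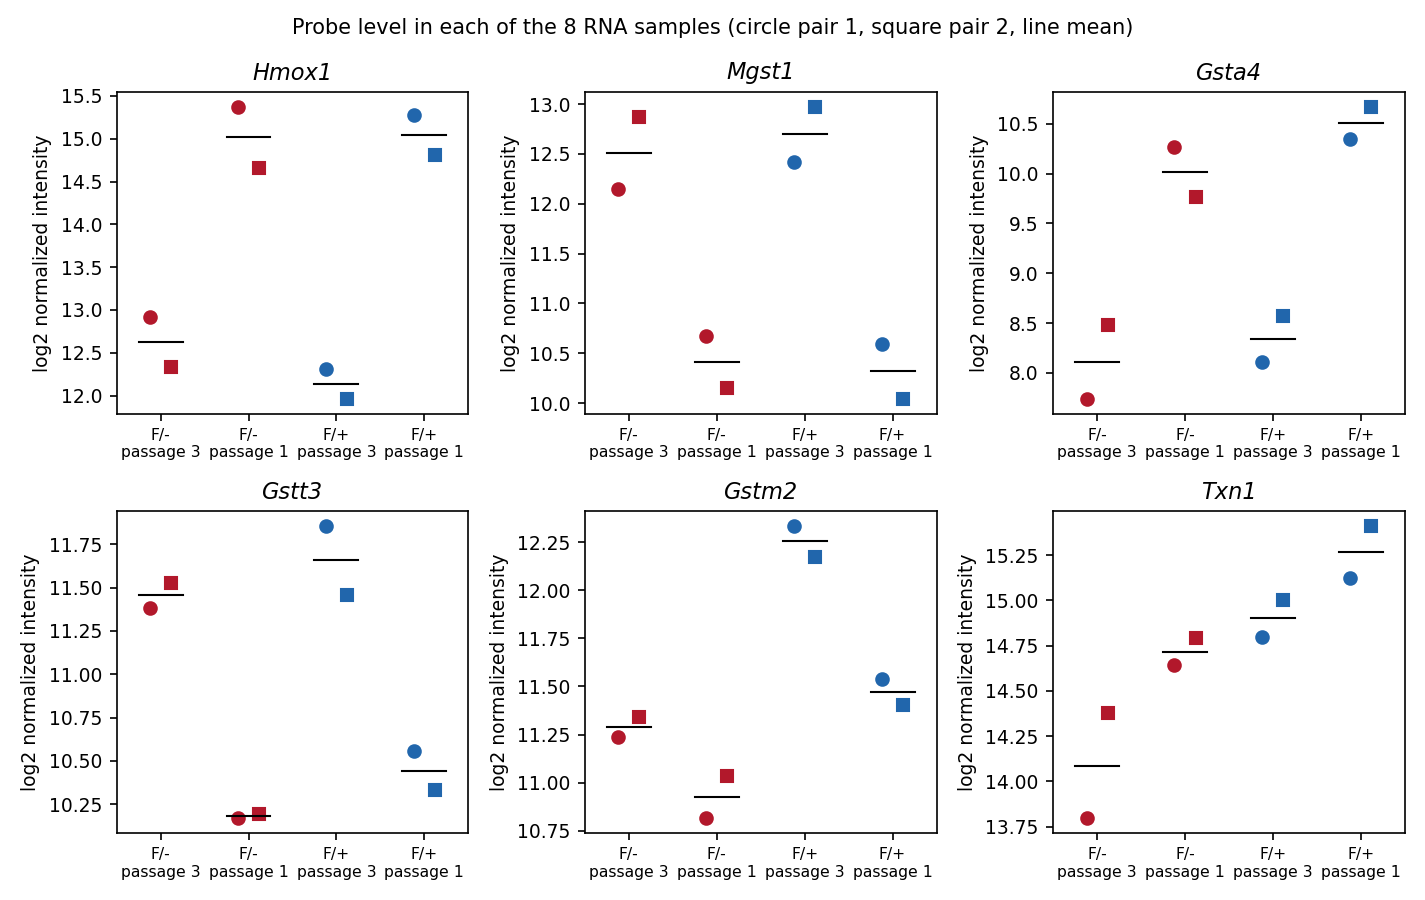
Normalized log2 intensity (vertical) of 6 member probes in each of the 8 RNA samples, by genotype and passage, with circles for pair 1, squares for pair 2 and lines for means. Each panel has its own scale, which does not start at 0, and F/- and F/+ were read in different dyes. Hmox1 and Gsta4 lie lower and Mgst1 and Gstt3 higher at passage 3 in both genotypes, while Gstm2 and Txn1 lie lower in F/- at both passages.

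Hmox1, which opens the heme ring and is a strongly inducible stress gene, fell with passage. Its level was 12.92 and 12.34 log2 units in F/- at passage 3, against 15.38 and 14.66 at passage 1, and 12.31 and 11.96 in F/+ at passage 3, against 15.27 and 14.81 at passage 1. The passages did not overlap in either genotype. Lack of overlap does not set Hmox1 apart, since of the 75 members the passages overlapped in only 23 in F/- and 30 in F/+. Overlap was not counted over all probes, so whether that is few cannot be said. The Hmox1 level was 5.24-fold lower in F/- (log2 change -2.39 ± 0.28, SE, limma adjusted p = 0.0048) and 7.49-fold lower in F/+ (-2.91 ± 0.28, adjusted p = 0.0020). Of the alternatives run, those that left out an early array ended both calls (adjusted p up to 0.11 in F/- and 0.062 in F/+). No other NRF2 or marker target probe was called: Nqo1 had a change of -0.66 in F/- and -0.95 in F/+ (adjusted p = 0.32 and 0.16), and 1 of 4 Nfe2l2 probes had changes of -1.05 and -0.81 (0.23 and 0.34), while the other 3 lay between 0.074 and 0.27.

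Some leukocyte and melanocyte probes were called lower at passage 3 as well. Leukocyte markers, whose summed intensities are given above, had a median change of -0.94 in F/- (1 of 20 probes called lower) and -0.85 in F/+ (6 of 20 called lower). Melanocyte markers summed to 32337 and 30519 in F/- at passage 3, against 85168 and 85034 at passage 1, and to 31986 and 27896 in F/+ at passage 3, against 84151 and 96212 at passage 1. Of 9 melanocyte probes 5 were called lower in F/- and 4 in F/+. Keratinocyte markers summed to 716396 and 617315 in F/- at passage 3, against 795849 and 718191 at passage 1, and to 876920 and 814504 in F/+ at passage 3, against 739072 and 876697 at passage 1, with 1 of 19 probes called lower in each genotype. Fibroblast markers had a change above 0 instead, with a median of 0.31 in F/- and 0.066 in F/+ and 1 of 17 probes called higher in each. Their sums were 9472 and 6767 in F/- at passage 3, against 3770 and 3787 at passage 1, and 3614 and 5185 in F/+ at passage 3, against 3121 and 4421 at passage 1. Endothelial markers had medians of -0.23 in F/- and -0.22 in F/+, with 1 of 9 probes called lower in each. The part of these cells in the passage changes of Hmox1 and the other members was not tested.

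Transferases gave most of the other calls, 4 higher and 3 lower of 28 probes in F/- and 4 higher and 1 lower in F/+. Mgst1, a membrane-bound transferase with peroxidase activity, stood at 12.14 and 12.87 log2 units in F/- at passage 3, against 10.67 and 10.15 at passage 1, and at 12.42 and 12.97 in F/+ at passage 3, against 10.59 and 10.04 at passage 1. All passage 3 values lay above all passage 1 values, and the level was 4.27-fold higher in F/- (log2 change 2.09 ± 0.27, SE, limma adjusted p = 0.0077) and 5.20-fold higher in F/+ (2.38 ± 0.27, adjusted p = 0.0041). The second Mgst1 probe stood at 11.20 and 12.28 in F/- at passage 3, against 10.12 and 9.85 at passage 1, and at 11.82 and 12.45 in F/+ at passage 3, against 10.09 and 9.69 at passage 1. It rose by 1.75 ± 0.33 in F/- (adjusted p = 0.030, and 0.058 with the pair as a block) and by 2.24 ± 0.33 in F/+ (0.011).

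Gsta4, an alpha-class transferase that acts on the lipid peroxidation product 4-hydroxynonenal, stood at 7.74 and 8.48 log2 units in F/- at passage 3, against 10.27 and 9.77 at passage 1, and at 8.11 and 8.57 in F/+ at passage 3, against 10.35 and 10.67 at passage 1. The passages did not overlap. The level was 3.76-fold lower in F/- (log2 change -1.91 ± 0.38, SE, limma adjusted p = 0.036, and 0.066 with the pair as a block) and 4.50-fold lower in F/+ (-2.17 ± 0.38, adjusted p = 0.021). Of 10 alternatives run, 5 ended the F/- call and 2 the F/+ call. Gstt3, a theta-class transferase, stood at 11.39 and 11.53 in F/- at passage 3, against 10.17 and 10.20 at passage 1, and at 11.86 and 11.46 in F/+ at passage 3, against 10.56 and 10.33 at passage 1. It was 2.42-fold higher in F/- (adjusted p = 0.037) and 2.32-fold higher in F/+ (0.040).

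Smaller changes were found in other transferases. The brighter Gsta3 probe stood at 8.45 and 8.68 log2 units in F/- at passage 3, against 7.68 and 7.89 at passage 1, and at 8.71 and 8.91 in F/+ at passage 3, against 7.84 and 8.10 at passage 1. It rose by 0.78 ± 0.16 in F/- (SE, limma adjusted p = 0.037, and 0.050 with the pair as a block) and by 0.84 ± 0.16 in F/+ (0.027), and the second probe had changes of 0.77 and 0.92 (0.14 and 0.082). Of 10 alternatives run, 6 ended the F/- call of Gsta3 and 4 the F/+ call. Its close relatives Gsta1 and Gsta2 had changes of -0.51 and -0.47 in F/- and -0.86 and -0.65 in F/+, and neither was called. Gstm1 stood at 10.69 and 10.66 in F/- at passage 3, against 11.93 and 11.46 at passage 1, and at 10.81 and 10.86 in F/+ at passage 3, against 11.82 and 11.83 at passage 1. Gstm3 stood at 9.87 and 9.99 in F/- at passage 3, against 11.17 and 10.71 at passage 1, and at 10.07 and 10.19 in F/+ at passage 3, against 11.02 and 11.01 at passage 1. The Gstm1 change was -1.02 ± 0.23 in F/- (adjusted p = 0.049) and -0.99 ± 0.23 in F/+ (0.051), and that of Gstm3 -1.01 ± 0.22 in F/- (0.047) and -0.88 ± 0.22 in F/+ (0.066). In F/- both calls ended in 9 of 10 alternatives run, among them the pair as a block (0.053 for Gstm1 and 0.069 for Gstm3). The second Gstm1 probe had changes of -0.92 in F/- (0.11, and 0.041 with the block) and -0.80 in F/+ (0.14). Gstm2, in contrast, had changes of 0.37 in F/- (0.36) and 0.78 in F/+ (0.077, and 0.049 with the block).

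**Figure D4:**
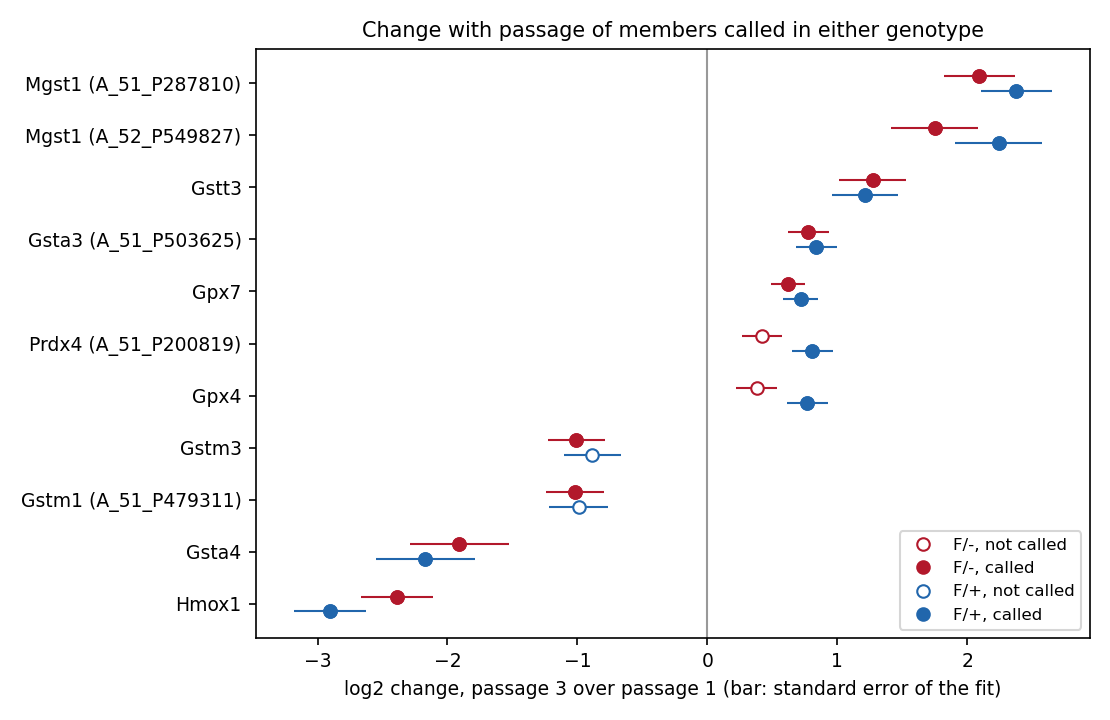
Log2 change from passage 1 to passage 3 (horizontal) of the member probes called in either genotype (rows), with F/- in red above F/+ in blue, filled where the adjusted p was under 0.05, and bars for the standard error of the fit. Every probe lies on the same side of 0 in both genotypes, from Hmox1 at -2.39 and -2.91 to Mgst1 at 2.09 and 2.38.

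Among glutathione peroxidases, Gpx7, an enzyme of the endoplasmic reticulum, stood at 10.20 and 10.15 log2 units in F/- at passage 3, against 9.51 and 9.60 at passage 1, and at 10.15 and 10.06 in F/+ at passage 3, against 9.34 and 9.43 at passage 1. It rose by 0.62 ± 0.13 in F/- (SE, limma adjusted p = 0.045, and 0.085 with the pair as a block) and by 0.72 ± 0.13 in F/+ (0.026, and 0.062 with the block). In each genotype its call ended in 7 of 10 alternatives run. Gpx4 stood at 15.04 and 14.86 in F/- at passage 3, against 14.57 and 14.57 at passage 1, and at 14.80 and 14.70 in F/+ at passage 3, against 13.88 and 14.08 at passage 1. It had a change of 0.38 ± 0.16 in F/- (adjusted p = 0.23) and rose by 0.77 ± 0.16 in F/+ (0.037, and 0.061 with the block). This F/+ call ended in 8 of 10 alternatives. The difference between the genotypes is the late minus early ratio of Gpx4, -0.39 ± 0.12, with an adjusted p of 0.83. Gpx2 had changes of 1.00 in F/- and 0.88 in F/+ (0.10 and 0.13) and Gpx3 of 1.07 and 0.94 (0.082 and 0.11), and with the pair as a block Gpx3 was called in F/- (0.036) and in F/+ (0.047).

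In the peroxiredoxin and thioredoxin system 0 of 24 probes were called in F/- and 1 in F/+. Prdx4 stood at 12.40 and 12.45 log2 units in F/- at passage 3, against 12.08 and 11.93 at passage 1, and at 12.61 and 12.67 in F/+ at passage 3, against 11.79 and 11.86 at passage 1. It rose by 0.81 ± 0.15 in F/+ (SE, limma adjusted p = 0.028, and 0.055 with the pair as a block), with a change of 0.42 ± 0.15 in F/- (0.18). The F/+ call ended in 6 of 10 alternatives. Prdx5, a peroxiredoxin found in mitochondria and elsewhere in the cell, had changes of -1.04 in F/- and -0.81 in F/+ (0.13 and 0.23). One of 4 Prdx6 probes had changes of -1.21 in F/- and -0.87 in F/+ (0.15 and 0.27), while the other 3 lay between -0.52 and 0.031. Txn1 had changes of -0.63 in F/- and -0.37 in F/+ (0.18 and 0.41) and Txnrd1 of -0.42 and -0.64 (0.37 and 0.18).

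The remaining roles gave no call with passage. Sod2 had changes of -0.77 in F/- and -0.55 in F/+ (adjusted p = 0.069 and 0.16). The brightest of 3 Sod1 probes had changes of 0.42 in F/- and 0.65 in F/+, and Cat of 0.30 and -0.029. The 6 probes for glutathione synthesis and recycling lay between -0.11 and 0.51 in F/- and between -0.051 and 0.65 in F/+. The 42 member probes that were neither called in a comparison nor among its highest or lowest by the rule for naming lay between -0.92 and 0.77 in F/- and between -0.80 and 0.82 in F/+ (smallest adjusted p 0.068 and 0.052).

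For 3 members the array holds repeated spots of 1 probe, which show the spread between spots of 1 array. The Gsta4 probe had 7 to 10 usable spots per array, with an SD between spots of 0.030 to 0.091, and means of -0.37 and -0.095 on the late and -0.078 and -0.91 on the early arrays. The gap between the early arrays was larger than the spread of the spots on either. Labelling, hybridisation and culture all differ between arrays and cannot be told apart here. Gsta4 was not called between genotypes (adjusted p = 0.19). The repeated Prdx2 probe, for a cytosolic peroxiredoxin, had spot SDs of 0.022 to 0.062 and means of 0.0087 and 0.11 late and 0.087 and 0.14 early, while the other Prdx2 probes ranged from -0.79 to 0.77 over the arrays. The repeated Sod1 probe had spot SDs of 0.067 to 0.096 and means of 0.096 and 0.057 late and -0.017 and -0.0033 early.

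**Figure D5:**
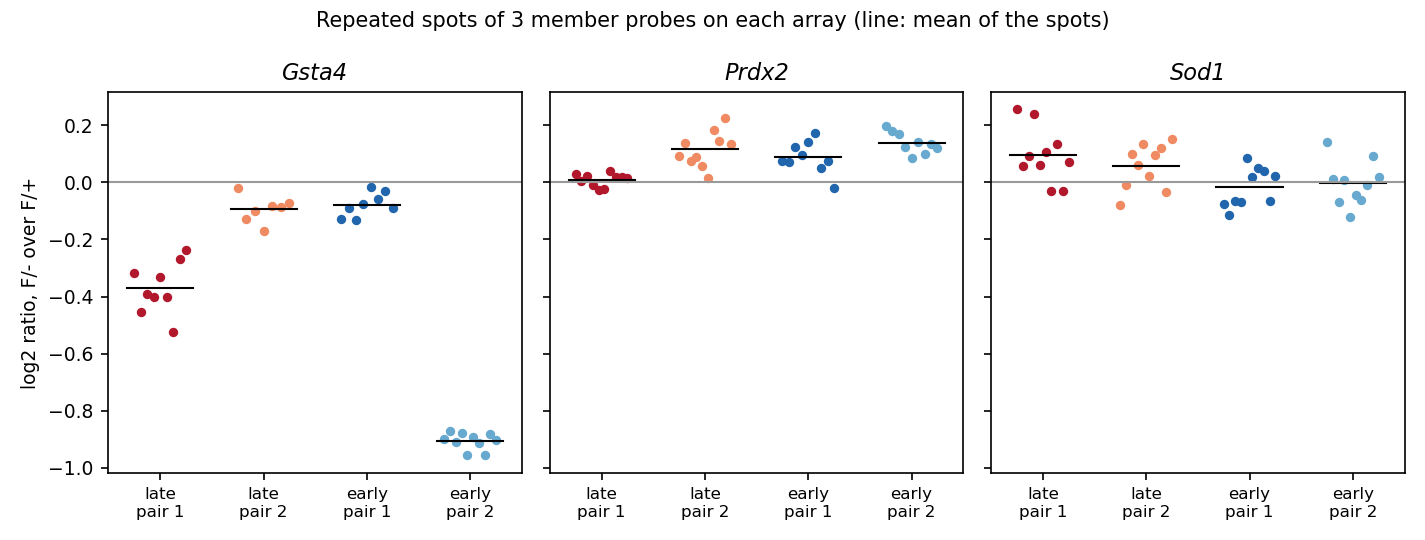
Log2 ratio of F/- over F/+ (vertical) of each usable repeated spot of the Gsta4, Prdx2 and Sod1 probes on each array (horizontal), with lines at the mean of the spots. Spots of Gsta4 on the early array of pair 2 lie near -0.91, apart from those of the other arrays.

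Other genes of thiol and peroxide metabolism were taken from a list of 51 genes, all found, with 78 kept probes. In F/- over F/+ as the mean of both passages, 8 were higher and 3 lower, against 8.84% called of all probes, with a median of 0.088. Pgd, an NADPH-producing enzyme of the pentose phosphate pathway, at 1 of 2 probes read 0.99 and 0.64 on the late and 1.11 and 0.81 on the early arrays, a mean of 0.89 ± 0.21 (SD, n = 4, limma adjusted p = 0.026), and at the other averaged 0.27 (0.051). The 3 probes of Abcc1, which exports glutathione conjugates, averaged 0.56 to 0.70 (adjusted p = 0.037 to 0.040), Mafg, a small MAF partner of NRF2, 0.61 ± 0.17 at 1 of 2 probes (0.029), both probes of the epoxide hydrolase gene Ephx1 0.48 (0.033 and 0.027), and Txnip, which binds thioredoxin, 0.54 ± 0.27 at 1 of 2 probes (0.042). The other Mafg and Txnip probes averaged 0.26 (0.18) and 0.16 (0.30). The lower ones were the transporter Abcc4 at -0.40 ± 0.061 (0.030) and the thioredoxin-like Txnl1 at -0.38 ± 0.061 (0.032), each at 1 of 2 probes, and Park7 at -0.30 ± 0.070 (0.048). The other Abcc4 and Txnl1 probes had the opposite sign, at 0.16 (0.15) and 0.11 (0.50). Bach1, a repressor of Hmox1, averaged -0.78 ± 0.71 (0.15).

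With passage, 4 of 76 probes of this list were called higher and 1 lower in F/-, against 5.08% called of all probes, and 4 higher and 2 lower in F/+, against 5.65%. Nox4, which makes hydrogen peroxide, rose by 2.15 in F/- and 2.41 in F/+ at 1 of 2 probes (limma adjusted p = 0.0011 and 0.00070), and the other had changes of 0.75 and 0.92 (0.12 and 0.063). Oplah, which returns 5-oxoproline to glutamate, rose by 1.65 and 2.20 at 1 of 2 probes (0.0087 and 0.0025), Osgin1 by 1.36 and 1.67 at 1 of 3 (0.029 and 0.013), and the methionine sulfoxide reductase gene Msrb2 by 1.32 and 1.19 (0.020 and 0.026). The other Oplah probe had changes of -0.050 and -0.16 (0.95 and 0.82). The other Osgin1 probes had changes of 0.40 and 0.78 in F/- and of 0.43 and 0.89 in F/+, and neither was called. Blvrb, a biliverdin reductase gene, fell by 1.58 in F/- and 1.34 in F/+ (0.0078 and 0.013). Maff, another small MAF gene, fell by 1.00 in F/+ (0.049) and had a change of -0.66 in F/- (0.15).

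The probes outside the module whose ratios on the 4 arrays lay closest to those of Gstm2, by Euclidean distance, were those of Cenpf (distance 0.091), Cks2 (0.16), Rfc4 (0.16), Adgrg2 (0.17) and Blnk (0.18). Cenpf read -1.06 and -0.84 on the late and -0.80 and -0.36 on the early arrays. Likeness over 4 arrays is a description with no test.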

How the data were processed

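Cy3 (F/-) and Cy5 (F/+) RNA was read on 4 two-colour Agilent arrays of 1 slide and 1 scan. Per the submitters' processing notes, the authors used Agilent Feature Extraction 9.1.3.1. Per the file headers, each spot has a raw intensity and local background in either dye and a log10 ratio, with Cy5 on top. The authors' deposited value table holds the same log10 ratios with the sign turned (largest gap 4.96e-06). No genome build applies to the arrays; RefSeq names and promoters are of GRCm38.p6.

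In limma 3.58.1, run in R 4.3.3, intensities were corrected with normexp (offset 50) and loess, and control and outlier spots had weight 0. Spots of a probe were averaged. A probe was kept where 2 or more arrays had it well above background in either dye and at most 1 array lacked it. Median raw signal was 101 to 139 in Cy3 and 166 to 253 in Cy5, over backgrounds of 37 to 39 and 59 to 61, with 0 saturated spots. The number of arrays limits the precision. Genotype was tested by lmFit and eBayes on log2 of Cy3 over Cy5 with the passages as groups (2 residual and 2.81 prior degrees of freedom). Passage was tested by the separate-channel fit after Aquantile (correlation within spots 0.741), over 35475 probes with no missing array. Tests were two-sided, with Benjamini-Hochberg adjustment over all probes and calls at 0.05. Figures were drawn with matplotlib.

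Same-numbered arrays come from the same mice, per the titles and the design text, so the pair as a block was an alternative; deviations of same-numbered arrays correlated at -0.000464 across probes. Members and lists were chosen with earlier results of these data known. By rule the text names members called in any of the 6 comparisons, whose values it gives by array or sample, the 8 highest and 8 lowest genotype means of 1 sign on 4 arrays, and the 5 highest and 5 lowest in late minus early and in each passage change with both pairs on the same side. Of the other redox genes, those called and the 3 largest means are named. Of 77 member probes, 65 matched RefSeq by accession, 11 by symbol and 1 by an older symbol. Scripts were tested on simulated data. Probe sequences, and so probe positions, were not used.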

Additional observations from a re-analysis of the deposited data

How the results depend on the processing

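Counts over all probes in the mean of both passages were 3144 as reported, 1934 with the scanner's ratios, 1800 with the authors' deposited table, 1569 with probes averaged per gene, 0 with the arrays of each pair averaged, and 0 to 3969 with 1 array left out. Member counts were 5 as reported, 11 with median centring, 2 with the scanner's ratios and with the deposited table, 3 with the mean per gene, 0 with pairs averaged and 0 to 8 with 1 array left out. With offset 0 in normexp, 69 probes were called at the early passage, and 0 as reported.

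With median centring the member medians were -0.074 early, -0.23 late and -0.14 as the mean of both passages, Gpx4 read -0.095 and Txnrd1 -0.19, both reversed. Without single late arrays the late member median ranged from -0.064 to -0.0088. The Nqo1 late minus early difference was 0.29 as reported and ranged from -0.083, without the early array of pair 2, to 0.67 with 1 array left out. Causes of these differences were not tested.

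With passage in F/-, 9 member probes and 1802 probes in all were called as reported, 3 and 664 without normalization between arrays, and 5 members with the pair as a block. With 1 array left out these counts ranged from 0 to 9 and from 107 to 3116. The F/- member median was 0.074 as reported, 0.045 without the background filter, -0.070 without normalization between arrays and 0.058 to 0.14 with 1 array left out. In F/+, 9 members and 2005 probes were called as reported, 4 and 812 without normalization between arrays, and 0 to 16 and 187 to 4564 with 1 array left out. Without normalization between arrays the median of all probes was -0.15 in F/- and -0.13 in F/+, against 0.011 and 0.020 as reported. The fits without 1 array take the correlation within spots from the full fit and assume that the lone sample varies like the other groups. The block changed no other call than those given with the results.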
